A study of Rattus norvegicus with 36 samples.

Results

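miR-128 was followed here through its 3 rows of a rat brain small RNA count table: rno-miR-128-3p, rno-miR-128-2-5p and rno-miR-128-1-5p. These were all rows of that name with any copy number or arm suffix, 3 of 723 miRNAs in the table, and all 3 were among the 457 miRNAs that had enough counts to be tested. The study asked how cocaine withdrawal alters miRNAs in 3 regions of the reward circuit of heterogeneous stock (HS) rats, an outbred line. The 36 libraries came from 12 male rats, 4 per condition, each giving the nucleus accumbens (NAc, core and shell dissected together), the prelimbic cortex (PL) and the infralimbic cortex (IL). Rats in protracted abstinence had self-administered intravenous cocaine in extended daily sessions and were then kept without the drug for 4 weeks. Rats in acute withdrawal had the same cocaine history and were killed after 16 h by the labels, while the study's methods give a slightly longer interval. Naïve rats never received cocaine and are the controls of both cocaine conditions. The study describes jugular catheter surgery and behavioural tests, with foot shock among them, for the cocaine rats and not for naïve rats. Cocaine and these procedures cannot be told apart in comparisons with naïve rats. Ages were matched at the start of self-administration, so age at death and time without drug cannot be told apart between the cocaine conditions. None of the groups carried a transgene or an engineered allele. All values are from bulk tissue, in which fewer cells of a type and less RNA per cell cannot be told apart.

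A miRNA gene is transcribed into a hairpin, which Dicer cuts into a duplex of a 5p and a 3p strand. One strand, the guide, is usually loaded into Argonaute and finds target mRNAs through its seed, bases 2 to 8, while the other strand is mostly degraded. miR-128 is a brain-enriched miRNA known for its role in neurons, where it dampens excitability by repressing ion channels and components of ERK2 signalling in mice. In mammals it comes from 2 genes, each within a protein-coding host gene that is active in neurons. The 2 hairpins give the same 3p strand but different 5p strands, so only the 5p rows can tell the genes apart.

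The 3 mature sequences are shown because they decide what each row can report. They are given 5′ to 3′ as in RefSeq on the GRCr8 assembly, with the seed in capitals.
rno-miR-128-3p: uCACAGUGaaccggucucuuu
rno-miR-128-2-5p: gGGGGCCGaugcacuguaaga
rno-miR-128-1-5p: cGGGGCCGuagcacugucuga
The 5p strands shared their seed and held the same base at 16 of 21 positions. Among 693 mature names in the sequence table, the 5p seed occurred in these 2 and the 3p seed in miR-128-3p alone. miR-27a-3p and miR-27b-3p, regulators of lipid metabolism and vascular growth, carry the first 8 bases of miR-128-3p one base further in, as the capitals mark here, so that their own seed is shifted.
rno-miR-27a-3p: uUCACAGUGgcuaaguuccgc
rno-miR-27b-3p: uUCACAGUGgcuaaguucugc

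The 2 hairpins, with both arms in capitals, show where the rows come from. On GRCr8, Mir128-1 lies at chr13:42251884-42251965 on the plus strand, inside the span of R3hdm1, and Mir128-2 lies at chr8:120963795-120963878 on the minus strand, inside the span of Arpp21, a cyclic AMP-regulated phosphoprotein gene. GRCr8 is not the assembly the reads were counted on.
Mir128-1: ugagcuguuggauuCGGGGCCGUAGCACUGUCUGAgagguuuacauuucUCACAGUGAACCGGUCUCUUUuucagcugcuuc
Mir128-2: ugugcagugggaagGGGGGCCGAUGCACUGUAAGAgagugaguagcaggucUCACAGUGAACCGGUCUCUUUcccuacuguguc
The capitals at the right are identical in the pair. The count of miR-128-3p is therefore a sum over both genes, and the share of each cannot be told apart from that row.

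The libraries held between 6192155 and 18877136 miRNA counts, with a median of 10739453.5. No 2 libraries of a group were identical, and the lowest correlation of log2 CPM (counts per 1000000 counts) among the 54 pairs of libraries from the same condition and region was 0.948. RNA integrity numbers (RIN) ran from 7.4 to 9.3. Replicates were separate rats. The PL library of naïve rat 2 stood apart among PL libraries. Its PL-minus-IL score, a mean over 40 miRNAs chosen on the other 11 rats with miR-128 left out, was −0.73. This was the lowest of the 12 PL libraries, whose median was 0.33 and highest score 0.83. IL libraries had a median of −0.30 and ran from −0.95 to 0.25, so the score overlapped between the regions. The 4 naïve IL libraries scored −0.15 to 0.25, each above this PL library. Results that rest on this library are given with and without it. The 4 neuronal marker miRNAs, miR-128-3p among them, had counts in every library.

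miR-128-3p was the most abundant miRNA in 36 of 36 libraries. It took 23.0% ± 3.22 of all miRNA counts in NAc, 29.6% ± 5.97 in PL and 23.1% ± 5.19 in IL (SD, n = 12 each). The lowest share of a library was 14.6% (Wilson 95% interval 14.6 to 14.7%), in the IL of abstinence rat 1, and the highest was 38.2% (38.2 to 38.3%), in the PL of withdrawal rat 3. These intervals cover counting error only, since the reads carried no molecular identifiers, and they are far narrower than the spread between rats. It exceeded the next miRNA of its library by 1.64-fold to 8.71-fold, with a median of 3.49-fold. The miRNAs next in mean share were miR-125a-5p with 6.0%, the imprinted miR-127-3p with 4.84% and miR-26a-5p with 4.64%. miR-9a-5p, a miRNA of neural progenitors and neurons, had 3.80%. Ligation bias in library preparation differs between sequences, so these shares order the reads and not the molecules.

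**Figure D1:**
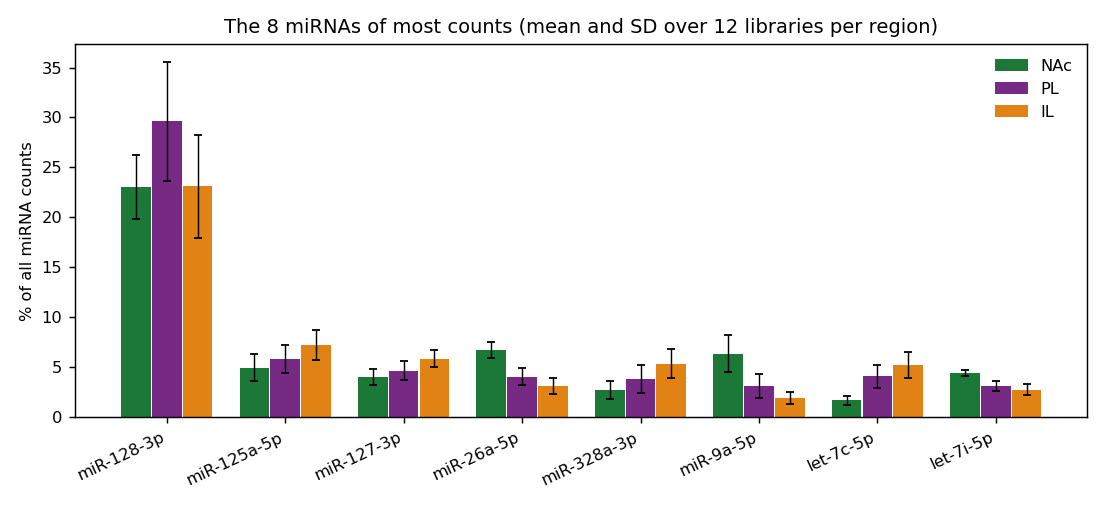
Share of all miRNA counts, in percent, taken by each of the 8 most counted miRNAs, with bars for the mean and whiskers for the SD over 12 libraries each of NAc, PL and IL. miR-128-3p holds 23.0% of counts in NAc, 29.6% in PL and 23.1% in IL, and no other miRNA has a mean above 8% in any region.

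The 5p strands were rare. miR-128-2-5p had a mean of 0.0275% of counts and ranked between 83 and 199 among the miRNAs of a library, and miR-128-1-5p had 0.00197% and ranked between 185 and 332. Per 1000000 counts of miR-128-3p, the 5p rows together had a median of 386 in NAc (292 to 832 over the 12 rats), 1006 in PL (696 to 3893) and 1921 in IL (970 to 4491). Of all 5p counts, the strand of Mir128-2 made up 90.4% in NAc, 93.8% in PL and 93.6% in IL on average, with single libraries between 86.0 and 97.3%. Thus the order 3p, 2-5p, 1-5p held in every library. The lowest count of miR-128-1-5p was 64 reads, in the NAc of naïve rat 2, and no library lacked any of the 3 strands.

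Both 5p strands were lower in NAc than in either cortex in every rat, and miR-128-3p was lower in NAc than in PL in 11 of 12 rats. All levels that follow are log2 CPM after TMM scaling, which corrects library totals for a few very abundant species, with a prior count of 0.5. miR-128-2-5p had its lowest, median and highest level at 5.62, 6.21 and 6.60 in NAc. In PL these were 7.62, 8.48 and 9.22, and in IL they were 8.28, 8.68 and 9.34. Every NAc library lay below every cortical library of this strand, while PL and IL libraries were mixed.

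The NAc difference was tested with rat as a block. miR-128-2-5p was lower in NAc than in IL (log2FC = −2.58, SE 0.15, a ratio of 0.168, adjusted p = 2.51e-13) and lower than in PL (log2FC = −2.23, SE 0.15, a ratio of 0.213, adjusted p = 3.84e-12, edgeR quasi-likelihood test with Benjamini-Hochberg adjustment over 457 miRNAs). It was lower in NAc in 12 of 12 rats against either cortex. Differences between these regions were common: at an adjusted p under 0.05, 76.6% of tested miRNAs were called for NAc against IL and 67.4% for NAc against PL. By p, miR-128-2-5p had rank 2 of the 457 for NAc against IL and rank 6 for NAc against PL. Between PL and IL, the difference of −0.35 (SE 0.15, 95% interval −0.63 to −0.06) had an adjusted p of 0.0617, where 38.1% of miRNAs were called. Without the PL library of naïve rat 2 it was −0.51 and passed (adjusted p = 0.00192, edgeR).

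miR-128-1-5p had the same order of regions. Its lowest, median and highest levels were 2.32, 2.93 and 3.52 in NAc. They were 3.62, 4.31 and 5.86 in PL, and 3.79, 4.90 and 5.58 in IL. Again no NAc library reached the lowest cortical library. The strand was lower in NAc than in IL (log2FC = −1.90, SE 0.20, adjusted p = 2.53e-09, 12 of 12 rats) and lower than in PL (log2FC = −1.40, SE 0.20, adjusted p = 1.06e-06, 12 of 12 rats, edgeR). By p, it had rank 62 of the 457 for NAc against IL and rank 64 for NAc against PL, where 76.6 and 67.4% of miRNAs were called. How many other miRNAs had NAc libraries apart from all cortical libraries, as the 5p strands did, was not counted. PL minus IL was −0.49 (SE 0.19, adjusted p = 0.0425, edgeR), a call that ended without withdrawal rat 1, withdrawal rat 2, abstinence rat 1 or abstinence rat 2 (−0.54 to −0.45) and turned to 0.076 in the 4 naïve rats alone (adjusted p = 0.937, edgeR).

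The abundant strand overlapped between regions. miR-128-3p had its lowest, median and highest level at 16.99, 17.63 and 18.01 in NAc. In PL they were 17.36, 18.32 and 19.08, and in IL 17.10, 18.01 and 18.35. Over the 12 rats, PL had the highest mean, then IL, then NAc, and neighbours in this order did not pass the test: NAc minus IL was −0.30 (SE 0.17, 95% interval −0.64 to 0.03, adjusted p = 0.108, lower in 8 of 12 rats) and PL minus IL was 0.42 (SE 0.17, 95% interval 0.09 to 0.76, adjusted p = 0.0520, higher in 9 of 12 rats, edgeR). The ends of the order differed, with NAc below PL (log2FC = −0.72, SE 0.17, adjusted p = 0.000539, 11 of 12 rats, edgeR). The order was not the same in each condition. PL minus IL averaged 0.71 in abstinence rats and 0.70 in withdrawal rats, but −0.09 in naïve rats, with 2 of 4 above 0. NAc minus IL averaged 0.01 in abstinence rats, −0.24 in withdrawal rats and −0.52 in naïve rats. By p, miR-128-3p had rank 192 of the 457 for NAc against PL and rank 372 for NAc against IL. The difference between NAc and IL lay near the threshold: leaving out 1 rat at a time, with scaling factors computed anew, gave −0.58 to −0.24, and the adjusted p was under 0.05 in 8 of 12 such fits, all but those without withdrawal rat 2, withdrawal rat 4, abstinence rat 2 or naïve rat 1.

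**Figure D2:**
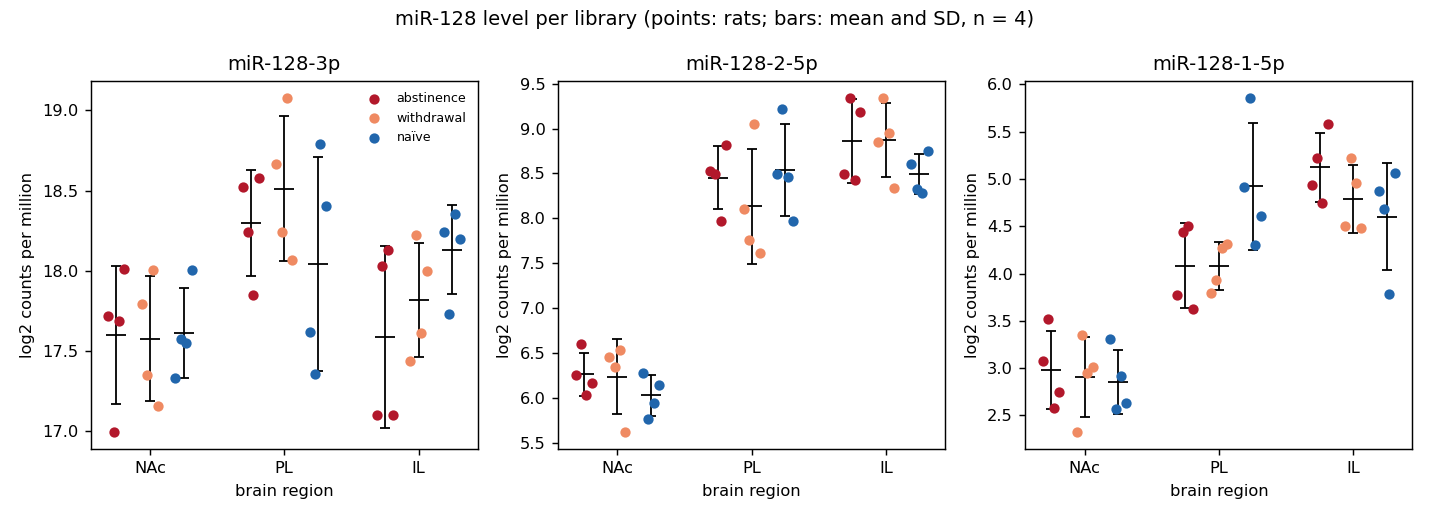
Log2 CPM (TMM-scaled) of the 3 miR-128 strands in each of the 36 libraries, 1 panel per strand, by NAc, PL and IL, with points for rats coloured by condition and bars for the mean and SD of the 4 rats of a condition. Both 5p strands are lower in every NAc library than in any cortical library (miR-128-2-5p at 5.62 to 6.60 in NAc, against 7.62 to 9.22 in PL and 8.28 to 9.34 in IL), while the ranges of miR-128-3p overlap.

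The fold change of miR-128-3p between regions depended on the scaling. Without TMM, on library totals, the median miRNA was 0.36 higher in NAc than in IL on the log2 scale, against 0.10 with TMM, and miR-128-3p differed by −0.01 (adjusted p = 0.956, edgeR). Relative to the median miRNA it was at −0.37 on totals and −0.40 with TMM. NAc against PL gave −0.37 on totals (adjusted p = 0.0126, edgeR), where the median miRNA was at 0.41. PL against IL, which missed the threshold with TMM, passed on totals at 0.36 (adjusted p = 0.0311, edgeR), where the median miRNA was at −0.075. The 5p differences of NAc from cortex were large under either scaling, for instance −2.29 for miR-128-2-5p and −1.62 for miR-128-1-5p in NAc against IL on totals.

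The ratio of a 5p strand to the 3p strand within a library does not depend on scaling, and is given as a description. For miR-128-2-5p the log2 ratio averaged −11.42 ± 0.43 in NAc, −9.91 ± 0.69 in PL and −9.10 ± 0.64 in IL (SD, n = 12 each). It was lower in NAc in 12 of 12 rats against IL, with a mean difference of −2.32 ± 0.71, and in 12 of 12 against PL, with −1.51 ± 0.84 (SD, n = 12). The ratio of miR-128-1-5p averaged −14.68 ± 0.64 in NAc, −13.92 ± 1.03 in PL and −13.01 ± 0.74 in IL. It was lower in NAc than in IL in 12 of 12 rats and lower than in PL in 9 of 12. Both 5p strands were thus scarcer beside their common partner in NAc than in IL in every rat.

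Between the cortical regions, the ratio is given by condition. For miR-128-2-5p, PL minus IL was −1.12 ± 0.71 in abstinence rats, with 4 of 4 below 0. It was −1.44 ± 0.50 in withdrawal rats, again 4 of 4 below 0, and 0.14 ± 0.97 in naïve rats, 2 of 4 below 0 (SD, n = 4 each). The naïve mean includes naïve rat 2, whose difference of 1.27 was the highest of the 12 rats and whose PL library had 3893 counts of both 5p strands per 1000000 of miR-128-3p, the most of any PL library. Without naïve rat 2 the naïve mean changed sign, to −0.24 ± 0.74 (SD, n = 3), with 2 of 3 below 0. For miR-128-1-5p, PL minus IL was −1.75 ± 1.56 in abstinence rats, with 3 of 4 below 0, and −1.41 ± 0.86 in withdrawal rats, with 4 of 4 below 0. It was 0.41 ± 0.93 in naïve rats, with 1 of 4 below 0 (SD, n = 4 each). Without naïve rat 2 that naïve mean kept its sign, at 0.03 ± 0.67 (SD, n = 3), with 1 of 3 below 0. The difference between conditions in these ratios was not tested.

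**Figure D3:**
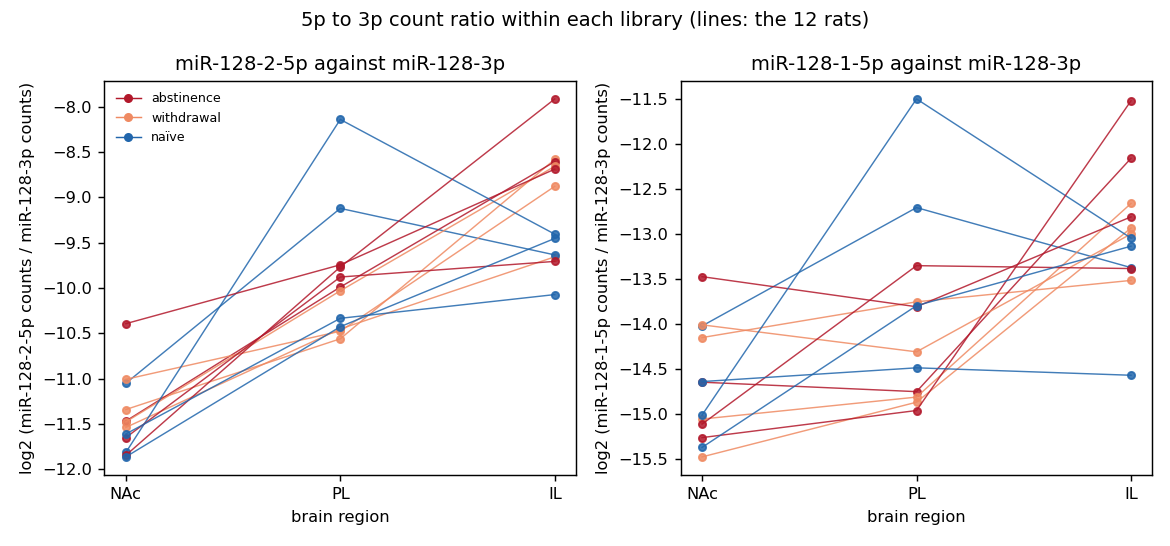
Log2 ratio of each 5p strand to miR-128-3p within a library, with 1 line per rat joining its NAc, PL and IL, in a panel for miR-128-2-5p and a panel for miR-128-1-5p. For miR-128-2-5p all 12 lines are lowest in NAc, where the mean is −11.42, against −9.91 in PL and −9.10 in IL.

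Each of the 3 strands was compared between conditions within each region, 27 comparisons in all, and a call needed a fold change of 1.5 or more together with p below 0.05 before adjustment, which is the study's threshold. Of these, 2 passed, both of miR-128-1-5p in PL and both against the naïve rats, whose 4 libraries they share. Over all tested miRNAs, from 0.656 to 8.32% were called in these comparisons. None passed an adjusted p of 0.05.

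In the PL of abstinence rats 1 to 4, miR-128-1-5p had 112, 226, 270 and 123 counts, at 3.77, 4.44, 4.50 and 3.62 log2 CPM. In withdrawal rats 1 to 4 it had 175, 287, 151 and 251 counts, at 3.80, 3.93, 4.27 and 4.32 log2 CPM. In naïve rats 1 to 4 it had 241, 495, 151 and 200 counts, at 4.91, 5.86, 4.31 and 4.61 log2 CPM. Naïve rat 2 was the highest of all 36 libraries, and naïve rat 3 lay within the range of abstinence rats and just below withdrawal rat 4, so the groups overlapped in both comparisons.

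In abstinence, miR-128-1-5p was at a log2FC of −1.05 against naïve PL (SE 0.29, a ratio of 0.481, adjusted p = 0.471, edgeR), in a comparison where 2.19% of tested miRNAs were called. In withdrawal it was at −0.85 (SE 0.29, a ratio of 0.557, adjusted p = 0.628, edgeR), where 4.81% were called. The exact two-sided permutation test of 4 rats against 4, which cannot go below 0.0286, gave p = 0.114 for abstinence and p = 0.0571 for withdrawal, with a mean difference of −0.84 log2 CPM in each. Abstinence minus withdrawal was −0.21 (SE 0.30, 95% interval −0.80 to 0.39), where 3.72% were called.

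Both calls rested on the PL library of naïve rat 2: they ended when it was left out, and the log2FC was then −0.59 for abstinence and −0.46 for withdrawal. That library also had the lowest summed level of the 4 vascular marker miRNAs in naïve PL, 1538 CPM, where the 4 libraries reached up to 6576, against 3528 to 4988 in abstinence PL and 4251 to 5975 in withdrawal PL. It was the lowest of naïve PL too for oligodendrocyte (672 CPM), choroid plexus and ependyma (1032), blood, and neuronal markers (187191, miR-128-3p included). For immune markers it was the highest (1407 CPM), and for epithelial markers it was neither. Each withdrawal PL library held more counts than each naïve PL library (11372613 to 18877136, against 7517269 to 9911807), so depth and condition cannot be told apart in that comparison. The 7 epithelial marker miRNAs summed to 30.9 to 1861 CPM in withdrawal PL, against 20.6 to 245 in naïve PL, with withdrawal rat 3 the highest. In this comparison 3 of 6 tested epithelial markers and 1 of 2 tested oligodendrocyte markers, miR-338-3p, were called higher, and 1 of 3 tested immune markers, miR-150-5p, was called lower. Their part in the result was not tested. Without withdrawal rat 3, the withdrawal difference of miR-128-1-5p was −0.94 and still passed the threshold.

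Outside the PL, no comparison of miR-128-1-5p passed the threshold. In IL it had 4.94, 5.22, 4.75 and 5.58 log2 CPM in abstinence rats, 4.50, 5.22, 4.95 and 4.49 in withdrawal rats, and 4.87, 4.68, 3.79 and 5.07 in naïve rats. In NAc it had 3.07, 3.52, 2.58 and 2.75 in abstinence rats, 2.32, 3.35, 2.95 and 3.01 in withdrawal rats, and 3.31, 2.56, 2.91 and 2.63 in naïve rats. The 3 conditions overlapped in both regions. Against naïve rats, the log2FC in abstinence was 0.28 in IL and 0.01 in NAc, and in withdrawal −0.0017 in IL and 0.12 in NAc.

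**Figure D4:**
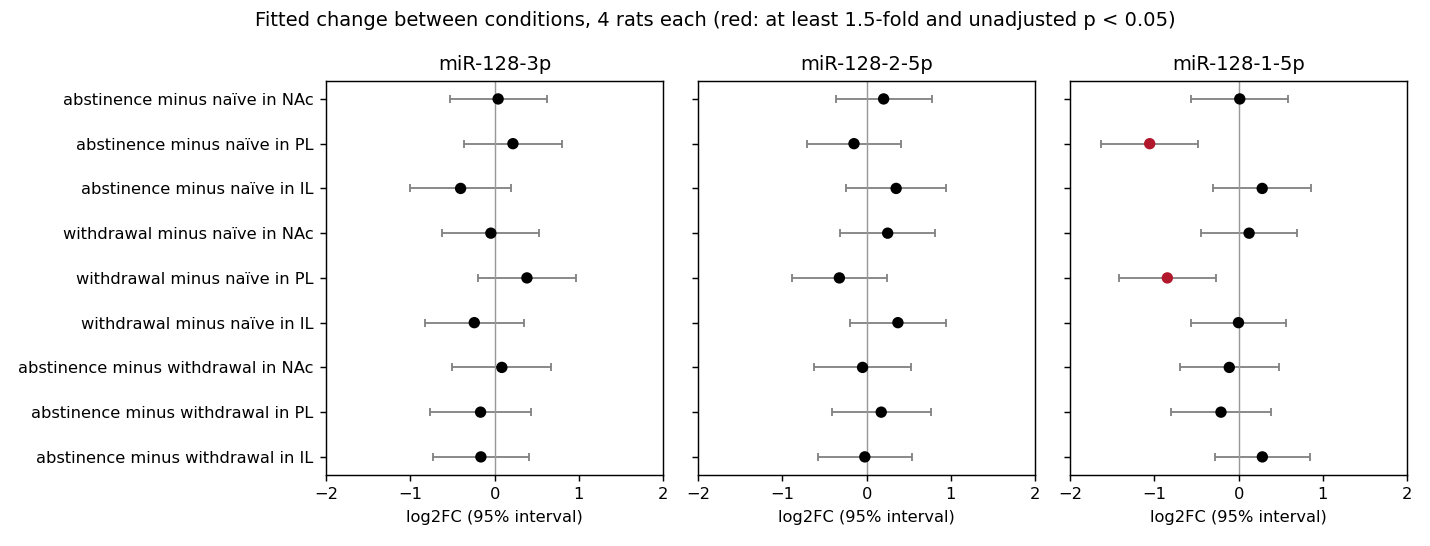
Fitted log2FC of the 3 strands in each of the 9 comparisons of conditions, 1 panel per strand, with points for the edgeR estimate, whiskers for its 95% interval and red for the calls. The red points are miR-128-1-5p in PL, at −1.05 for abstinence and −0.85 for withdrawal against naïve rats, and all other intervals include 0.

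The changes themselves were compared between regions in the same fit. For miR-128-1-5p, the change in abstinence was more negative in PL than in IL, with a difference of −1.33 (SE 0.41, adjusted p = 0.413, edgeR) and more negative in PL than in NAc, with −1.07 (SE 0.41, adjusted p = 0.868, edgeR). Of all tested miRNAs, 8.53% were called in the PL to IL difference and 3.72% in the PL to NAc difference of abstinence. The change in withdrawal was more negative in PL than in NAc, with a difference of −0.97 (SE 0.41, adjusted p = 0.499, edgeR), where 6.78% were called. For withdrawal in PL against IL, the difference of −0.84 (SE 0.42, adjusted p = 0.444, edgeR) missed the threshold, where 10.1% of miRNAs were called. With the rat as a block this comparison had 1 strand past the threshold, miR-128-1-5p at −0.85 with a random block (adjusted p = 0.300, limma-voom) and miR-128-2-5p at −0.87 with a fixed block (adjusted p = 0.291, edgeR). IL minus NAc was 0.27 in abstinence (4.16% called) and −0.13 in withdrawal (1.09% called). The first 3 of these differences met the threshold of the calls, and no difference between regions passed an adjusted p of 0.05. Without the PL library of naïve rat 2, the differences between PL and NAc were −0.63 in abstinence and −0.57 in withdrawal and met it no longer, while that between PL and IL in abstinence was −0.83 and still did. That call too ended, at −0.82, when all 3 libraries of naïve rat 2 were left out.

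miR-128-3p and miR-128-2-5p passed the threshold in none of the condition comparisons. In PL, miR-128-3p was at 18.52, 18.24, 17.85 and 18.58 log2 CPM in abstinence rats, 18.66, 18.24, 19.08 and 18.07 in withdrawal rats, and 17.62, 17.36, 18.79 and 18.40 in naïve rats. Naïve rats 1 and 2 were the lowest of the 12 and naïve rat 3 the next to highest, so the naïve libraries surrounded nearly all the others. The log2FC against naïve rats was 0.22 in abstinence (95% interval −0.37 to 0.80) and 0.38 in withdrawal (95% interval −0.19 to 0.96).

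In IL, miR-128-3p had 17.10, 18.03, 18.13 and 17.10 log2 CPM in abstinence rats, 17.44, 18.22, 17.61 and 18.00 in withdrawal rats, and 18.24, 17.73, 18.35 and 18.20 in naïve rats. Abstinence rats fell into a lower and a higher pair, and the higher pair lay within the naïve range. The log2FC was −0.40 in abstinence (SE 0.31, 8.32% of miRNAs called) and −0.24 in withdrawal (SE 0.30, 6.35% called). Abstinence against withdrawal gave −0.16 in IL, where again 6.35% were called. The change of miR-128-3p in PL minus that in IL was 0.62 in abstinence (adjusted p = 0.611, edgeR) and 0.62 in withdrawal (adjusted p = 0.467, edgeR), and neither passed the threshold.

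In NAc, miR-128-3p had 17.72, 16.99, 17.68 and 18.01 log2 CPM in abstinence rats, 17.79, 17.35, 18.00 and 17.15 in withdrawal rats, and 17.33, 17.57, 17.55 and 18.00 in naïve rats. The 3 sets covered nearly the same range. The log2FC against naïve rats was 0.04 in abstinence (95% interval −0.53 to 0.62, 1.09% of miRNAs called) and −0.04 in withdrawal (95% interval −0.62 to 0.53, 2.63% called), and abstinence against withdrawal gave 0.09 (0.656% called). These intervals leave room for a change of up to about 0.6 log2 units in either direction.

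miR-128-2-5p overlapped between conditions in each region. In PL it had 8.53, 8.50, 7.97 and 8.81 log2 CPM in abstinence rats, 8.10, 7.76, 9.05 and 7.62 in withdrawal rats, and 8.50, 9.22, 8.46 and 7.97 in naïve rats. Its log2FC against naïve rats was −0.15 in abstinence and −0.32 in withdrawal in PL, 0.35 and 0.37 in IL, and 0.20 and 0.25 in NAc. In IL it had 8.49, 9.34, 8.42 and 9.19 log2 CPM in abstinence rats, 8.86, 9.34, 8.95 and 8.34 in withdrawal rats, and 8.61, 8.32, 8.28 and 8.75 in naïve rats. Withdrawal rat 3 was high and the other withdrawal rats low in PL, and naïve rats were never the highest in IL. The adjusted p was at least 0.594 in all 9 comparisons of this strand (edgeR).

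With the 3 regions of a rat summed to 1 value per animal, no strand passed. miR-128-3p was at −0.0036 in abstinence and 0.11 in withdrawal against naïve rats, and miR-128-2-5p at 0.25 and 0.07. miR-128-1-5p was at −0.03 in abstinence and −0.28 in withdrawal. In this fit 2.07% of 483 miRNAs were called for abstinence, 1.86% for withdrawal and 1.86% for abstinence against withdrawal.

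The strands were also compared with each other over the rats of a region, since each hairpin yields the 3p strand and a 5p strand. miR-128-1-5p ran against miR-128-3p over the 12 rats in PL (Pearson r = −0.73, permutation p = 0.00579, adjusted p = 0.0347 over 6 relations; Spearman rho = −0.69, permutation p = 0.0152, adjusted p = 0.0914). Without the 2 rats farthest from the median of miR-128-3p, naïve rat 2 and withdrawal rat 3, r was −0.68, and over deviations from condition means it was −0.73. In NAc, r was −0.67 (permutation p = 0.0180, adjusted p = 0.0540) and rho was −0.59 (permutation p = 0.0486, adjusted p = 0.146). r was −0.55 without the 2 farthest rats. In IL, r was −0.36 (permutation p = 0.253, adjusted p = 0.507) and rho was −0.17.

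The relation of miR-128-2-5p to miR-128-3p was weak, with r of 0.11 in NAc, 0.04 in PL and −0.15 in IL. On library totals all 6 relations were negative, from −0.92 for miR-128-1-5p in PL to −0.41 for miR-128-2-5p in NAc. That of miR-128-2-5p in PL, at −0.52 (rho = −0.17), rested on the 2 farthest rats, naïve rats 1 and 2, and r was 0.39 without them. Strands of a library share its total and its scaling factor, and the factor itself ran against the share of miR-128-3p (r = −0.86 in NAc, −0.85 in PL and −0.80 in IL). The part of the shared total in these relations was not tested.

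**Figure D5:**
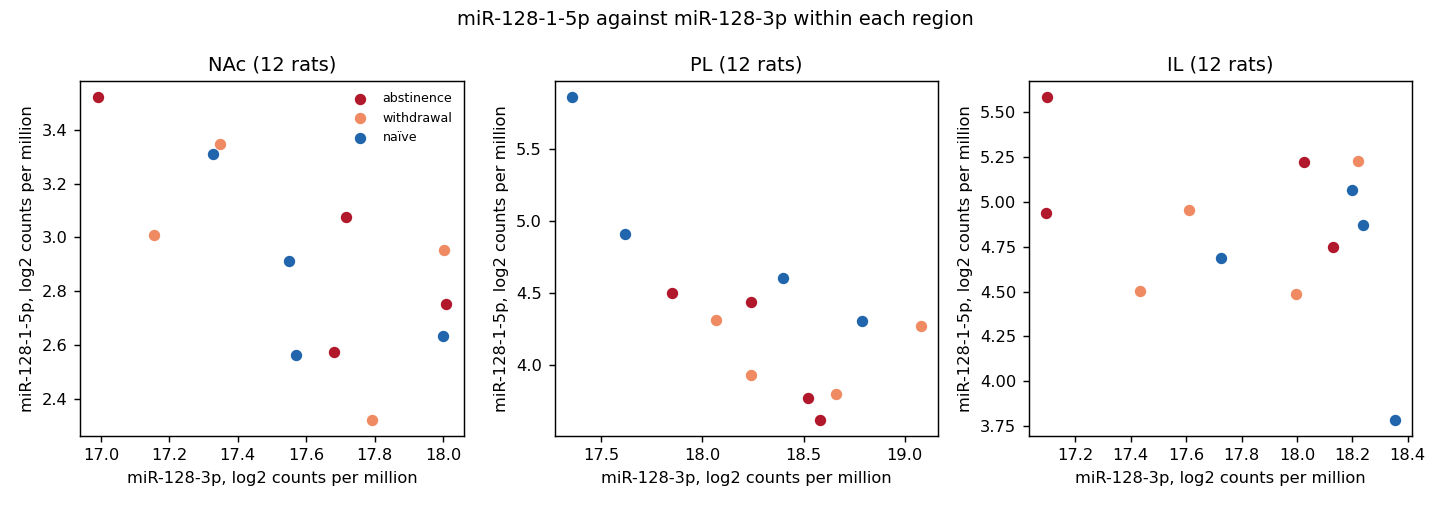
Log2 CPM of miR-128-1-5p against that of miR-128-3p over the 12 rats, in a panel each for NAc, PL and IL, with points coloured by condition. The points slope down in NAc (r = −0.67) and PL (r = −0.73), with naïve rat 2 at the upper left of PL, and are scattered in IL (r = −0.36).

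The miRNAs whose levels were most like each strand over the 36 libraries were different for the 3 strands. They were taken from 215 or 216 miRNAs with an average of at least 5 log2 CPM, and the correlations are descriptions over libraries that share rats and regions. For miR-128-2-5p they were miR-671 (r = 0.98), let-7c-5p, miR-125b-1-3p and miR-125b-2-3p (0.95 each) and miR-770-3p (0.94). For miR-128-1-5p they were miR-1224 (0.95), miR-664-2-5p (0.94), miR-331-3p (0.93), miR-674-5p and let-7e-5p (0.92 each). For miR-128-3p they were miR-146b-5p (0.88), miR-132-5p (0.83), miR-674-3p (0.82), miR-24-3p (0.80) and miR-27a-3p (0.77). The 5p strands were alike (r = 0.89), but over deviations from the region means this was 0.46, and miR-128-3p against miR-128-1-5p was −0.60.

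Once region means were taken out, miR-128-3p was most like miR-146b-5p (r = 0.90), let-7i-5p and miR-99a-5p (0.87 each), and miR-218a-5p and miR-9a-5p (0.85 each). miR-128-2-5p was most like miR-323-5p (0.87), miR-139-3p and miR-671 (0.84 each), and miR-128-1-5p most like miR-1224 (0.80), miR-330-3p and miR-667-3p (0.79 each). miR-146b-5p thus stayed the nearest to miR-128-3p on both measures. Among the 5 nearest, miR-671 and miR-125b-1-3p stayed for miR-128-2-5p, and miR-1224 and miR-674-5p for miR-128-1-5p.

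Other neuron-enriched miRNAs differed between NAc and cortex in both directions. Of 20 tested members of a list of 21, without miR-128, 6 were higher and 7 lower in NAc than in IL at an adjusted p under 0.05, with a median log2FC of 0.02, beside 0.10 over all tested, where 76.6% were called. Against PL, 7 were higher and 7 lower, with a median of −0.05 beside 0.05, where 67.4% were called. miR-137-3p, linked to synaptic maturation, was at 2.66 in NAc against IL (adjusted p = 4.79e-10) and miR-9a-5p at 1.44 (adjusted p = 6.2e-06). The other strand of the miR-137 hairpin, miR-137-5p, went the other way, at −1.54 (adjusted p = 7.68e-11, edgeR). miR-124-3p, the classic neuronal miRNA, was at −0.65 (adjusted p = 3.15e-06) and the activity-regulated miR-132-3p at −0.64 (adjusted p = 4.64e-06, edgeR). Between conditions, from 0 to 3 members of the list passed the threshold in a region, where 0.656 to 8.32% of all tested miRNAs did.

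The seed-related miR-27 strands differed from miR-128-3p and from each other. miR-27b-3p was higher in NAc than in IL (log2FC = 1.58, adjusted p = 2.45e-09) and than in PL (1.01, adjusted p = 6.22e-06), where miR-128-3p was at −0.30 and −0.72. miR-27a-3p was at −0.02 in NAc against IL (adjusted p = 0.885) and lower than in PL (−0.37, adjusted p = 0.00667, edgeR). Neither passed the threshold between conditions in any region.

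Markers of other cell types were measured as well, in a comparison where 76.6% of all tested miRNAs were called. Against IL, the oligodendrocyte markers miR-338-3p and miR-338-5p were both higher in NAc (2 tested of a list of 4, median log2FC 1.65), as were 3 of 4 vascular markers, with 1 lower (median 1.26). Of 3 tested immune markers 2 were higher and 1 lower, of 6 epithelial markers 3 were higher and 1 lower, of 6 choroid plexus and ependyma markers 1 was higher, and the 1 tested blood marker was higher. Of the 4 neuronal markers 2 were higher and 1 lower. The summed level of the oligodendrocyte markers ranged from 1003 to 1697 CPM in NAc and from 547 to 1602 CPM in IL in abstinence rats. In withdrawal rats it ranged from 1152 to 1699 CPM in NAc and from 629 to 891 CPM in IL. In naïve rats it ranged from 1109 to 2257 CPM in NAc and from 629 to 1241 CPM in IL. The part of cell composition in the differences of miR-128 between regions was not tested.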

How the data were processed

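Small RNA libraries (NEBNext kit) were made from total RNA of snap-frozen NAc, PL and IL of 12 rats, and the authors mapped and counted reads with the CAP-miRseq workflow, whose version is not given in the sources used here. The deposited values are raw counts per mature miRNA. The study's methods name rn6 and the submitters' processing notes mRatBN7.2 (rn7), so the counting build is unsettled. The table has 1 row for miR-128-3p, whichever hairpin a read came from.

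Groups were taken from the labels and regions were tied to rats through the study's sample list, except 1 naïve NAc library, which was tied to its rat by the design alone. Counts were filtered with filterByExpr (minimum count 10, minimum total 15), leaving 457 of 723 miRNAs with 99.998106% of counts; 95 miRNAs had no count. They were TMM-scaled and fitted with edgeR 4.0.16 (robust quasi-likelihood, R 4.3.3), with 1 mean per condition and region and RIN as covariate. Region comparisons had the rat as a block. SEs were derived from the F statistic, and 95% intervals are the estimate ± 1.96 SE. P-values were adjusted over all tested miRNAs. No adjustment covers the number of comparisons. Exact permutation tests used scipy 1.17.1. Sequences came from RefSeq tables on GRCr8, in which 645 names of the count table had a mature sequence. The fits were tested on simulated data before use.

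The members, the gene lists and the tests were chosen with earlier results of these data known. Named miRNAs were the miR-128 rows, for each of them the 5 with the highest Pearson r, the miR-27 pair and other miRNAs with the related seed (miR-216a-3p had 152 counts in all libraries and was not tested), the most counted miRNAs, and the most abundant members of lists of neuron-enriched miRNAs and of markers of oligodendrocytes, immune cells, vessels, blood, choroid plexus and ependyma, epithelium and neurons. Regions of a rat are paired because they come from the same animal; deviations from the group means correlated with a median r of 0.27 for PL and NAc, 0.15 for IL and NAc, and 0.27 for IL and PL. Alternatives were other scalings (median of ratios, library totals with and without miR-128-3p), no filter, no RIN term, DESeq2 1.42.0, limma-voom 3.58.1, single regions, other blocks, the naïve rats alone, leaving out each rat, and leaving out the 2 libraries of RIN under 8. Leaving out the PL library of naïve rat 2, and that rat in the strand ratio, was chosen after seeing the data. So was naming miR-137-5p beside miR-137-3p.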

Additional observations from a re-analysis of the deposited data

Results flagged for a closer look

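Of 18 tests over the 3 strands for a difference between regions in the change between conditions, 3 had p below 0.05 before adjustment (edgeR). All 3 were of miR-128-1-5p. In abstinence against naïve rats the difference of PL from IL was −1.33 log2 units (adjusted p = 0.413, edgeR) and that of PL from NAc was −1.07 (adjusted p = 0.868, edgeR). In withdrawal against naïve rats the difference of PL from NAc was −0.97 (adjusted p = 0.499, edgeR). Each met p below 0.05 only before adjustment over the 457 miRNAs. Of all tested miRNAs, 8.53, 3.72 and 6.78% were called in these tests, in the same order. All 3 tests share the naïve PL libraries, so they are not independent. Without the PL library of naïve rat 2 these differences were −0.83, −0.63 and −0.57 in the same order. Of 45 sets of 4 values, which are 5 measures of the same groups of rats, 0 held a sample far from the others by Dixon's criterion, where chance gives about 1 set in 20.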

How the results depend on the processing

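The lower level of both 5p strands in NAc kept its direction and its call under every alternative run, with miR-128-2-5p between −2.74 and −2.29 against IL and between −2.49 and −1.86 against PL, and miR-128-1-5p between −2.05 and −1.62 against IL and between −1.99 and −1.03 against PL. miR-128-3p was below PL in NAc in all alternatives (−0.84 to −0.37), but in the 4 naïve rats alone the difference of −0.44 lost its call (adjusted p = 0.0634, edgeR). Over all alternatives, 355 counts of called strands stayed within 1.5 times the reported count and 44 moved. Many comparisons had 0 strands called, and a count of 0 that stayed 0 is among the 355. The total is therefore no measure of how stable the calls were. For PL against IL, the count was kept in 3 of 12 fits without 1 rat and in 3 of 11 other alternatives. A kept count need not be the same strand. On totals without miR-128-3p the strand called was miR-128-3p (adjusted p = 0.0201, edgeR) and not miR-128-1-5p. The call of miR-128-1-5p itself was kept in 8 of 12 fits without 1 rat and in 7 of 11 other alternatives.

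PL against IL depended most on the processing. In place of 1 strand called, library totals and limma-voom called 3, DESeq2 and the fit with no replicate block 2, no filter, no RIN term and the 4 naïve rats alone 0, and the data without the PL library of naïve rat 2 called 2. For miR-128-1-5p the difference was −0.45 on totals without miR-128-3p, −0.48 with no filter, −0.46 with no RIN term and 0.076 in naïve rats alone; leaving out 1 rat gave −0.69 to −0.45 and 0 to 2 called strands, and the call ended without withdrawal rat 1 (−0.54), withdrawal rat 2 (−0.49), abstinence rat 1 (−0.50) or abstinence rat 2 (−0.45). For miR-128-2-5p the naïve rats alone gave 0.016. miR-128-3p, not called in the main fit, passed in 1 of 12 fits without 1 rat. It passed in 4 of 11 other alternatives, over which its difference ran from 0.04 to 0.49. The cause was not tested.

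In the PL, leaving out 1 rat gave 0 to 2 called strands for withdrawal against naïve, 0 to 1 for abstinence against naïve and 0 to 1 for abstinence against withdrawal. miR-128-1-5p lay between −0.99 and −0.44 for withdrawal and between −1.15 and −0.55 for abstinence, with the smallest values without naïve rat 2. Without that rat's PL library alone, 0 strands were called in either comparison (−0.46 and −0.59). For the differences between regions, the withdrawal change in PL against IL had 1 strand called in place of 0 on library totals, with DESeq2, limma-voom or no RIN term, and with the rat as a fixed or random replicate block, and 0 to 2 when 1 rat was left out. Leaving out 1 rat gave 0 to 2 called strands for PL against NAc in withdrawal (miR-128-1-5p −1.21 to −0.48), 0 to 2 for PL against IL in abstinence (−1.53 to −0.82, where the call ended without naïve rat 2) and 0 to 1 for PL against NAc in abstinence (−1.29 to −0.50). The PL to NAc calls ended without withdrawal rat 2 (−0.71), withdrawal rat 4 (−0.89) or naïve rat 2 in withdrawal, and without abstinence rat 1 (−0.79), abstinence rat 2 (−0.89) or naïve rat 2 in abstinence; without the PL library of naïve rat 2 they were −0.57 and −0.63, with 0 strands called. On library totals the relation of miR-128-2-5p to miR-128-3p turned to r = −0.52 in PL, which was 0.39 without naïve rats 1 and 2, and −0.41 in NAc.

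With 4 rats per condition, the exact permutation test cannot go below 0.0286, and miR-128-1-5p rested on 64 to 495 reads per library. A count of 64 has an exact Poisson 95% interval of 49.3 to 81.7, which covers counting error only.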
